A study of Mus musculus with 2 samples.

Results

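Ly6a, Ly6c1, Ly6c2, Ly6d and Ly6e are 5 mouse genes of the Ly6 family of small cell-surface proteins. They were taken by their symbols from the 31053 genes of the feature table, and each symbol matched 1 gene. The cells came from the pancreas of R26[CA]30EYFP mice on the C57Bl/6J background after pancreatitis, although the treatment field of the labels reads None. In this Rosa26 reporter a CA repeat keeps EYFP out of its reading frame until the length of the repeat changes. EYFP positive cells made 1 single-cell library and EYFP negative cells from the same kind of mice made the other. Both groups therefore share the strain, the reporter, the tissue and the pancreatitis. How many animals were used, how old they were and how long after pancreatitis the cells were taken is not stated in the labels. The EYFP transcript was not analysed here, and counts were therefore no check of the sort.

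Ly6 proteins fold into a compact domain held together by disulfide bonds and are fixed to the outer leaf of the membrane by a glycosylphosphatidylinositol (GPI) anchor. Antibodies against them are used to sort cells: Ly6a is Sca-1, a marker of stem and progenitor cells that also coats vessels and some fibroblasts, and Ly6c1 and Ly6c2 together carry the Ly6C antigen of monocytes, memory T cells and endothelium. Ly6d marks commitment to the B lineage, and Ly6e is widely expressed and induced by interferon.

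All 5 genes lie on mouse chromosome 15 and are protein coding in the GENCODE M21 annotation of GRCm38. Ly6d is at chr15:74762056-74763620 on the minus strand, Ly6e at chr15:74955051-74959905 on the plus strand, Ly6a at chr15:74994877-74998031 on the minus strand, Ly6c1 at chr15:75044018-75048830 on the minus strand and Ly6c2 at chr15:75108158-75111970 on the minus strand. From the start of Ly6d to the end of Ly6c2 the members span 349915 bases. Ly6c1 and Ly6c2 are near copies: their coding sequences of 393 bases each were identical at 384 positions, or 97.71%, with no gap. Ly6a was 81.84% identical to Ly6c1 and 81.59% to Ly6c2, and every pair that included Ly6d or Ly6e was between 47.36% and 52.33% identical. The stretch below, bases 6 to 65 of the coding sequence counted from the start codon, holds 6 of the 9 bases at which Ly6c1 and Ly6c2 differ. It is shown because a read that lies within the coding sequence and covers none of the 9 differences cannot tell the copies apart. Capitals mark the differing bases.
Ly6c1: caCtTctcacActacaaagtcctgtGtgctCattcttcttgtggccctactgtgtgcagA
Ly6c2: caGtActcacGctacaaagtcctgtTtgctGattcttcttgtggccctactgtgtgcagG

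Over whole transcripts the copies are easier to separate. Of all windows of 91 bases in their annotated transcripts, Ly6c1 and Ly6c2 shared 195, which was 11.05% of those of Ly6c1 and 7.125% of those of Ly6c2. Ly6a and Ly6c1 shared 28 such windows, and no other pair of members shared any. The labels do not say how reads that match both copies were counted, so counts of Ly6c1 and Ly6c2 carry that uncertainty.

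Upstream of their first exons Ly6c1 and Ly6c2 are less alike than in their coding parts. The RefSeq promoter table for GRCm38.p6 held windows for 2 of the 5 members, Ly6c1 and Ly6c2. The 250 bases before the outermost annotated start of each are shown because the copies were found in different T cells, as described further on. Aligned end to end, they were identical at 164 of the 216 paired bases, or 75.9%. A further 68 columns of the alignment were gaps, part of them where one window runs past the other. Capitals mark the 2 aligned runs of at least 12 identical bases, which together hold 35 bases. Ly6c1 is chr15:75048838-75049087 and Ly6c2 is chr15:75111972-75112221, both read from the minus strand.
Ly6c1: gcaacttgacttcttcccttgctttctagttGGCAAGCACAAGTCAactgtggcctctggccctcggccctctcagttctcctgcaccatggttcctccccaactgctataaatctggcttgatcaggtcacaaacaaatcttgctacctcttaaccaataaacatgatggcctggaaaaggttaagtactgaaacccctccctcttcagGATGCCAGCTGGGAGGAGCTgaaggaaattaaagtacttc
Ly6c2: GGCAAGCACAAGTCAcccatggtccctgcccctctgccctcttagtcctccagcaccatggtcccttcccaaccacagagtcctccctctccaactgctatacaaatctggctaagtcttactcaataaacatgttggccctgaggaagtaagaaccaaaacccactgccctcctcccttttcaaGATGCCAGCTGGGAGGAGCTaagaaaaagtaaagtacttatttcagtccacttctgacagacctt

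Letters of 6 known motifs were searched on both strands of the 4 promoter windows of 300 bases listed for Ly6c1 and Ly6c2. The windows of a gene overlap, and TATAAA occurred once, at base 108 of the outer window of Ly6c1, and in 13.6% of the 32851 mouse promoters of that length. The core of the interferon-stimulated response element, which is GAAA, any 2 bases and GAAA again, was in none of the 4 windows and in 3.44% of all promoters. The same held for the STAT element TTCNNNGAA (8.3%), the T-box letters AGGTGTGA (1.28%), the ETS letters CCGGAAGT (3.89%) and the GATA letters AGATAA (11.2%). These are matches of letters and say nothing of which factors bind.

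The 2 libraries differed in depth. In the EYFP positive library 860 of 1717 barcodes were kept, with 2745342 unique molecular identifiers (UMIs, each standing for 1 captured transcript) and a median of 1007.5 per cell. In the EYFP negative library 553 of 745 barcodes were kept, with 4857210 UMIs and a median of 8020 per cell. The libraries shared 4 barcodes, of which 2 were kept, and those 2 fell in the same class in both. Clusters were made without any Ly6 family gene and named from markers, so that a class is called T-like, for example. Levels are counts per 1000000 UMIs (CPM), the summed UMIs of a gene scaled by the summed UMIs of the class. Each group is 1 library, so there is no replicate and no test, and every 95% interval covers counting error only. Some classes were made of different clusters in the 2 libraries. In the EYFP positive library 130 of 210 T-like cells and 59 of 108 B-like cells were in clusters of low depth, with medians of 709.5 and 691 UMIs, that held no EYFP negative cell. All naming markers of the T-like, B-like and macrophage or monocyte-like classes were at least 2-fold above the rest in both libraries, and so were 11 of 11 endothelial and 12 of 12 fibroblast markers in EYFP positive cells, against 10 of 11 and 11 of 12 in EYFP negative cells. Secretory genes of acinar cells, known as free RNA in suspensions of pancreas, made up 0.588% to 1.1% of the UMIs of the 5 EYFP positive classes and 0.00422% to 0.236% of those of the EYFP negative classes. Their part in the differences below was not tested.

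**Figure D1:**
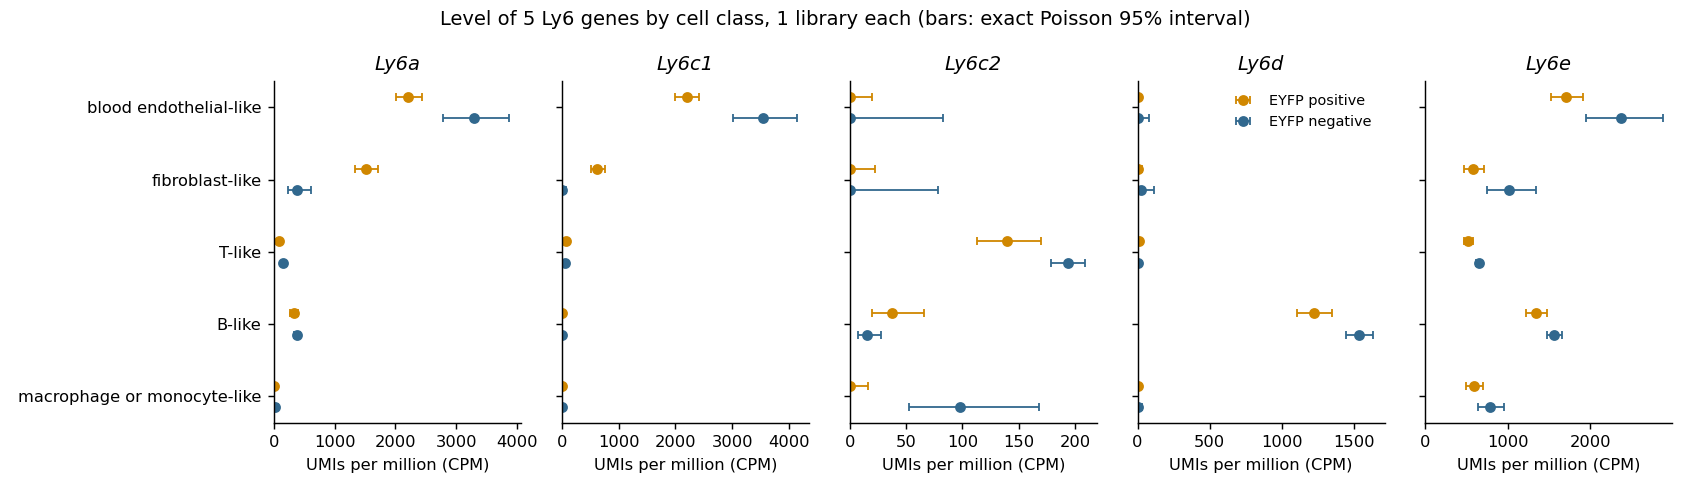
Level of each Ly6 gene in CPM in 5 cell classes of both libraries. Points are levels of the summed UMIs and bars are exact 95% Poisson intervals. Among these 5 classes Ly6a and Ly6c1 were highest in blood endothelial-like cells, Ly6d in B-like cells and Ly6c2 in T-like cells, while Ly6e was found in all 5.

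Ly6a and Ly6c1 had their highest levels in vessel cells in both libraries. Ly6a stood at 2212 CPM (2002 to 2437; 407 UMIs in 58 cells) in EYFP positive blood endothelial-like cells and at 3300 CPM (2788 to 3879; 147 UMIs in 11 cells) in EYFP negative ones. Ly6c1 stood at 2195 CPM (1987 to 2420; 404 UMIs) in EYFP positive and 3547 CPM (3015 to 4145; 158 UMIs) in EYFP negative blood endothelial-like cells. For both genes this was the class with the highest level, and its interval did not overlap that of the next class in either library. Within the EYFP positive library Ly6a was 12.9-fold (11.2 to 14.8) and Ly6c1 31.9-fold (26.7 to 38.4) higher in this class than in all other cells. Within the EYFP negative library the folds were 19.4 (16.2 to 23.2) for Ly6a and 88.9 (71.6 to 110) for Ly6c1. Endothelial-like cells are few, and they held 48.1% of the Ly6a and 69.7% of the Ly6c1 UMIs of the EYFP positive library. In the EYFP negative library they held 15.2% of the Ly6a and 45.1% of the Ly6c1 UMIs. There T-like cells held 52.0% of the Ly6a and 54.3% of the Ly6c1 UMIs, and B-like cells 27.9% of the Ly6a UMIs. In this comparison of the class with the rest 3 of 5 members were past 2-fold higher in each library. Of all genes with at least 10 UMIs, 17.8% were past 2-fold higher among EYFP positive and 28.2% among EYFP negative cells.

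A UMI of Ly6a was found in 42 of 58 EYFP positive and 10 of 11 EYFP negative endothelial-like cells, and the same numbers held for Ly6c1. With each cell thinned to 500 UMIs, the shares for Ly6a were 46.6% and 63.6%, and those for Ly6c1 were 56.9% of EYFP positive and 90.9% of EYFP negative cells. In macrophage or monocyte-like cells, which had no more than 3 UMIs of either gene, 1 of 53 EYFP positive cells (median 971 UMIs) and 2 of 11 EYFP negative cells (median 11902 UMIs) held Ly6a, against medians of 1212.5 and 3918 UMIs in the endothelial-like cells. Both genes were found in the same cells: 34 of 58 EYFP positive and 9 of 11 EYFP negative endothelial-like cells held both. No cell of either sort held Ly6c2 or Ly6d, which allows a share of cells with a UMI of up to 5.17% among EYFP positive and 27.3% among EYFP negative cells, taking 3 cells for the 0 seen. Such a limit is on cells with a UMI at this depth and not on cells that express the gene.

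Set against the EYFP negative cells of the class, EYFP positive endothelial-like cells had lower levels of both genes. The fold was 0.670 (0.554 to 0.815) for Ly6a and 0.619 (0.514 to 0.749) for Ly6c1. Neither passed 2-fold, nor did Ly6e, so that 0 of the 3 members with enough UMIs did, where 27.6% of all genes in this comparison were past 2-fold one way or the other. The class mixed a cluster of low depth (35 EYFP positive and 2 EYFP negative cells, 767 UMIs a cell) with one of higher depth (23 and 9 cells, 6081 UMIs a cell). In the deeper cluster Ly6a stood at 2635 CPM in EYFP positive and 3405 CPM in EYFP negative cells, and in the shallow cluster at 801 CPM in EYFP positive cells. Ly6c1 showed the same split, with 2585 CPM in EYFP positive and 3640 CPM in EYFP negative cells of the deeper cluster and 895 CPM in the EYFP positive cells of the shallow one.

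Gpihbp1, a Ly6 family protein that holds lipoprotein lipase on capillary walls, had the highest level in this class of the other family genes, at 1054 CPM (194 UMIs) in EYFP positive and 1661 CPM (74 UMIs) in EYFP negative cells. EYFP positive endothelial-like cells with a Gpihbp1 UMI had 2435 CPM of Ly6a, against 1666 CPM in those without (1.46-fold, 1.15 to 1.87). For Ly6c1 the levels were 2473 CPM in cells with Gpihbp1 and 1516 CPM in cells without (1.63-fold). For Ly6e they were 1998 CPM with and 1011 CPM without (1.98-fold). Depth moved with this split, at a median of 4773 UMIs in cells with Gpihbp1 and 798.5 UMIs in cells without. Its part in the difference was not tested. Cd59a, an inhibitor of the complement pore, stood at 54.3 CPM in EYFP positive and 22.4 CPM in EYFP negative cells of the class. With Cd59a the fold was 1.27 (1.02 to 1.57) for Ly6a and 0.896 (0.707 to 1.13) for Ly6c1, the second of which spanned 1.

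Fibroblasts carried Ly6a and Ly6c1 in the EYFP positive library. Ly6a reached 1519 CPM (1337 to 1718; 252 UMIs in 64 cells) in EYFP positive fibroblast-like cells and 380 CPM (225 to 601; 18 UMIs in 6 cells) in EYFP negative ones, a fold of 4.0 (2.48 to 6.85). Thinned to 1000 UMIs a cell, the fold was 1.26, but this left out 41 of the 64 EYFP positive cells and 1 EYFP negative cell. It rests on 29 and 5 UMIs. Thinned to 500 UMIs, with all cells kept, the levels were 1219 CPM (39 UMIs) in EYFP positive and 333 CPM (1 UMI) in EYFP negative cells. Ly6c1 reached 627 CPM (512 to 759; 104 UMIs) in EYFP positive fibroblast-like cells and had no UMI in the 6 EYFP negative cells. This put the EYFP positive level at least 9.90-fold higher against a floor of 3 UMIs (7.91-fold at the limit of the counting interval). With cells thinned to 1000 UMIs this bound was 1.30. Ly6a and Ly6c1 were thus 2 of the 3 members with enough UMIs that were past 2-fold, both higher, where 33% of all genes were past 2-fold one way or the other. Single cells weighed on these sums: 1 EYFP positive cell held 64 of the 252 Ly6a UMIs, and 1 EYFP negative cell held 10 of the 18.

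The 6 EYFP negative fibroblast-like cells also held blood endothelial markers at 633 CPM, with at least 2 such UMIs in 5 of the 6. In EYFP positive fibroblast-like cells those markers stood at 175 CPM in cells with Ly6a and 58.5 CPM in cells without, and at 59.1 CPM with Ly6c1 and 326 CPM without. Their part in the levels was not tested. Ly6a was found in 40 of 64 EYFP positive and 5 of 6 EYFP negative cells, and in 48.4% and 16.7% of these cells after thinning to 500 UMIs. Ly6c1 was found in 36 of 64 EYFP positive cells, 26 of which also held Ly6a, and in 0 of 6 EYFP negative cells, which allows a share of cells with a UMI of up to 50%. Against the other cells of its library, fibroblast-like Ly6a was 6.58-fold (5.66 to 7.64) higher among EYFP positive cells and 1.93-fold (1.14 to 3.07) higher among EYFP negative cells. Past 2-fold higher here were 2 of 5 members among EYFP positive cells, against 16.3% of all genes, and 0 of 5 among EYFP negative cells, against 25.6%.

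Within the EYFP positive fibroblast-like cells the members followed genes of the adventitial layer, the sleeve of progenitor-like fibroblasts around vessels. Ly6c1 stood at 898 CPM in the 47 cells with a UMI of Pi16, a secreted marker of these cells, and at 106 CPM in the 17 cells without, a fold of 8.51 (3.77 to 23.8). With Sema3c, a secreted guidance protein, the Ly6c1 level was 836 CPM, against 275 CPM without (3.05-fold). Ly6a was higher in cells with each of the 6 adventitial genes, from 1.22-fold for Cd34 to 2.35-fold for Sema3c. Ly6c1 was higher with 5 of the 6 and lower with Cd34 (0.658-fold). Ly6e went the other way, with 293 CPM in cells with Pi16 and 1144 CPM in cells without, and it was lower with 5 of the 6 genes. Cells with a UMI of these genes were also deeper, by 742 against 646 UMIs for Pi16 and 1219 against 581 UMIs for Cd34 at the median. These genes also moved with the difference between the libraries. Pi16 stood at 2598 CPM (431 UMIs in 47 of 64 cells) in EYFP positive and 42.2 CPM (2 UMIs in 2 of 6 cells) in EYFP negative fibroblast-like cells. Sema3c stood at 1151 CPM in EYFP positive and 21.1 CPM in EYFP negative cells, Cd34 at 1157 CPM in EYFP positive and 507 CPM in EYFP negative cells, and Dpp4 and Anxa3 had no UMI in the EYFP negative cells. Their part in the folds of Ly6a and Ly6c1 between the libraries was not tested.

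**Figure D2:**
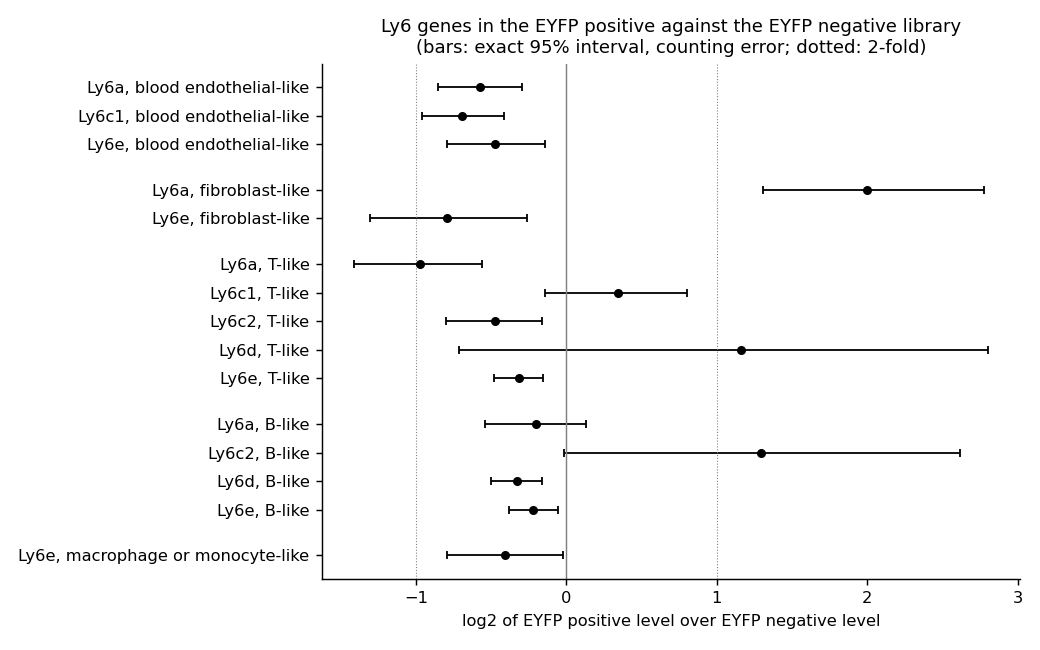
Fold of EYFP positive over EYFP negative level, on a log2 axis, for each Ly6 gene with at least 10 UMIs in a class. Points are ratios of CPM with exact 95% intervals, dotted lines mark 2-fold, and genes with no UMI in one of the libraries are left out. The fold of Ly6a was 4.0 in fibroblast-like cells, 0.510 in T-like and 0.670 in endothelial-like cells, and that of Ly6e was below 1 in the 5 classes shown.

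T cells held Ly6c2, Ly6a and Ly6c1 at low levels beside Ly6e. In T-like cells Ly6c2 stood at 139 CPM (113 to 170; 96 UMIs in 18 of 210 cells) on the EYFP positive side and 193 CPM (179 to 209; 656 UMIs in 62 of 388 cells) on the EYFP negative side, a fold of 0.720 (0.575 to 0.893). Ly6c1 stood at 71.1 CPM (49 UMIs in 21 cells) in EYFP positive and 56.0 CPM (190 UMIs in 83 cells) in EYFP negative T-like cells, and its fold of 1.27 (0.907 to 1.75) spanned 1. Ly6a stood at 75.4 CPM (52 UMIs in 33 cells) in EYFP positive and 148 CPM (502 UMIs in 151 cells) in EYFP negative T-like cells, a fold of 0.510 (0.375 to 0.679). Of the 5 members 1 was past 2-fold in this comparison, Ly6d with 5 and 11 UMIs, where 12.2% of all genes were. The Ly6a fold pooled clusters that differed. The shallow cluster 0, with EYFP positive cells only, stood at 178 CPM (109 to 274). Cluster 4 stood at 51.6 CPM in EYFP positive and 112 CPM in EYFP negative cells, and cluster 10 at 75.9 CPM and 279 CPM.

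Ly6c2 was the most concentrated of the members in T cells. T-like cells held 76.8% of its UMIs among EYFP positive cells and 90.1% among EYFP negative cells, and their level was 9.87-fold (6.46 to 15.5) and 3.93-fold (3.08 to 5.09) above that of the other cells of the same library. Past 2-fold higher in T-like cells was 1 of 5 members in each library, against 7.77% of all genes among EYFP positive and 7.65% among EYFP negative cells. The EYFP negative value depended on few other cells: without the 1 cell richest in Ly6c2 in each class it was 13.6, and with each cell assigned by its own marker UMIs it was 1.19. In that library the class with the highest level was not T-like. The 14 NK or innate lymphoid-like cells stood at 287 CPM (201 to 397), an interval that overlapped that of T-like cells. The UMIs were also bunched among T cells: 4 of 210 cells in the EYFP positive and 14 of 388 cells in the EYFP negative library held at least 50% of them. By cluster, Ly6c2 was highest in cluster 10, whose leading genes include Il2rb and Izumo1r, at 542 CPM in its 13 EYFP positive and 403 CPM in its 81 EYFP negative cells. In cluster 4, led by Lef1 and Bcl11b, it stood at 84.6 CPM in 67 EYFP positive and 136 CPM in 307 EYFP negative cells.

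The near copies parted between T-like cells with Cd8 UMIs and those with Cd4 UMIs. Cells with neither held both copies as a group. T-like cells were called Cd8 when they held a Cd8a or Cd8b1 UMI and no Cd4 UMI (61 EYFP positive and 145 EYFP negative cells), and Cd4 in the reverse case (31 and 132 cells). In the EYFP negative library Ly6c2 stood at 397 CPM (366 to 431; 595 UMIs in 56 cells) in Cd8 cells and at 0.909 CPM (1 UMI) in Cd4 cells, a ratio of 437 (78.2 to 17294). In the EYFP positive library it stood at 246 CPM (192 to 310; 71 UMIs in 11 cells) in Cd8 cells and 5.07 CPM (1 UMI) in Cd4 cells, a ratio of 48.5 (8.43 to 1942). Both intervals are wide, with 1 UMI on the Cd4 side of each. The remaining T-like cells had UMIs of neither coreceptor (113 EYFP positive and 86 EYFP negative cells) or of both (5 and 25 cells). In cells with neither, Ly6c2 stood at 132 CPM (24 UMIs) in the EYFP positive and 46.0 CPM (27 UMIs) in the EYFP negative library.

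Between the Cd8 and Cd4 subsets Ly6c1 was the mirror image. In the EYFP negative library it stood at 3.34 CPM (5 UMIs in 4 cells) in Cd8 cells and 73.6 CPM (58.5 to 91.5; 81 UMIs in 44 cells) in Cd4 cells, a ratio of 0.0453 (0.0143 to 0.110). In the EYFP positive library it had no UMI in Cd8 cells and 107 CPM (66.0 to 163; 21 UMIs in 6 cells) in Cd4 cells. Against a floor of 3 UMIs the Cd8 level was at least 10.3-fold lower, and the limit of the counting interval was 7.63-fold. With cells thinned to 1000 UMIs, that Cd8 over Cd4 ratio was at most 0.362, and without the cell richest in Ly6c1 at most 0.169. Ly6c1 was not confined to the Cd4 subset. Cells with neither coreceptor held 22 Ly6c1 UMIs (121 CPM) in the EYFP positive and 71 UMIs (121 CPM) in the EYFP negative library. Cells with both held 6 UMIs (267 CPM) and 33 UMIs (159 CPM). Ly6a was also lower in Cd8 cells, with 27.7 CPM in Cd8 and 81.2 CPM in Cd4 cells of the EYFP positive library (0.341-fold, 0.127 to 0.846) and 49.4 CPM in Cd8 and 225 CPM in Cd4 cells of the EYFP negative library (0.220-fold, 0.167 to 0.286). Ly6e differed less, with 371 CPM in Cd8 and 685 CPM in Cd4 cells of the EYFP positive library (0.541-fold) and 559 CPM in Cd8 and 644 CPM in Cd4 cells of the EYFP negative library (0.867-fold). Past 2-fold were 3 of 4 members in the EYFP positive library, where 19.6% of all genes were, and 4 of 5 members in the EYFP negative library, where 11.9% were. Among these 4 was Ly6d, with 2 UMIs in Cd8 cells and 8 UMIs in Cd4 cells, 7 of the 8 in 1 cell.

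**Figure D3:**
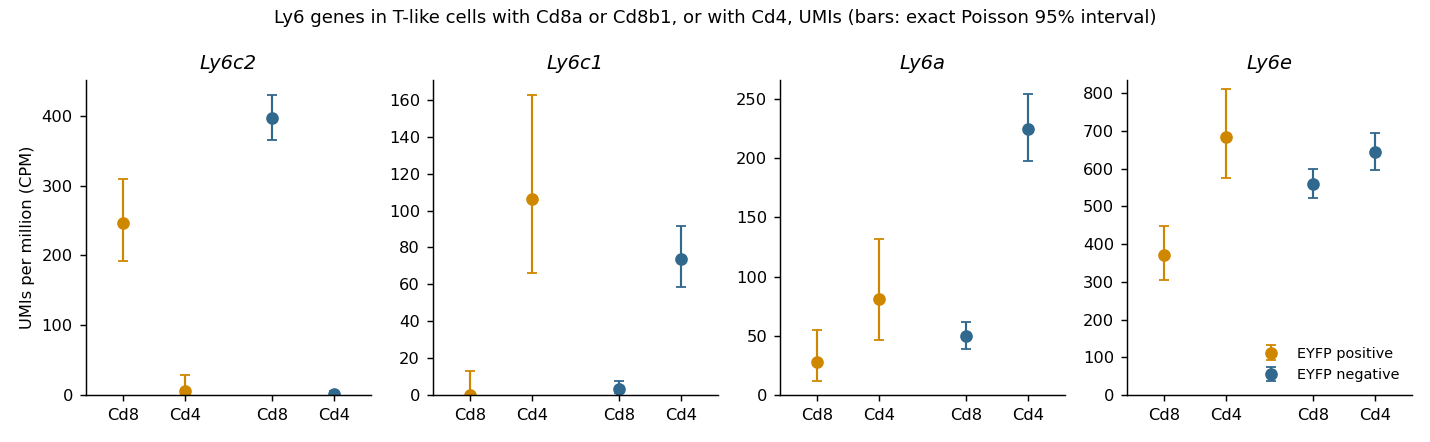
Levels of Ly6c2, Ly6c1, Ly6a and Ly6e in CPM in Cd8 and Cd4 T-like cells of both libraries. Points are levels of the summed UMIs and bars are exact 95% Poisson intervals. Ly6c2 lay at 246 and 397 CPM in Cd8 cells against 5.07 and 0.909 CPM in Cd4 cells, and Ly6c1 at 0 and 3.34 CPM in Cd8 cells against 107 and 73.6 CPM in Cd4 cells.

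Few cells held both copies. No T-like cell of the EYFP positive library (21 cells with Ly6c1, 18 with Ly6c2) and 2 of 388 in the EYFP negative library (83 with Ly6c1, 62 with Ly6c2) had UMIs of both. Most cells with UMIs of one copy thus had none of the other. For the EYFP positive library this says little, since each copy was found in few of its 210 mostly shallow T-like cells. A cell with no UMI of a copy may still express it. Ly6a was found in 8 of 21 EYFP positive T-like cells with Ly6c1 and in 25 of 189 without, and in 48 of 83 EYFP negative T-like cells with Ly6c1 and in 103 of 305 without. The EYFP positive cells with Ly6c1 were the deeper ones (median 4681 UMIs, against 969 without), while the EYFP negative medians were 8074 UMIs with and 8776 UMIs without. Between the libraries, EYFP positive Cd8 cells had less Ly6c2 than EYFP negative ones (0.619-fold, 0.477 to 0.793), and EYFP positive Cd4 cells had less Ly6a (0.362-fold, 0.203 to 0.599). The Cd4 difference in Ly6c1 spanned 1 (1.45-fold, 0.850 to 2.36).

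**Figure D4:**
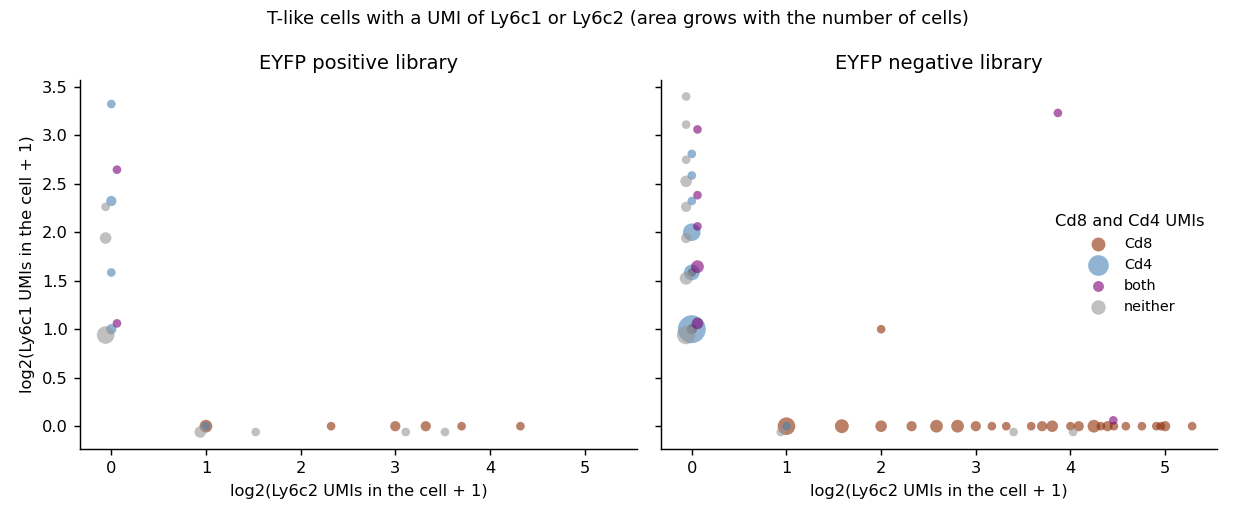
UMIs of Ly6c1 and Ly6c2 per T-like cell, as log2(UMI + 1), for cells with a UMI of either gene. Each point stands for cells with the same counts, its area grows with their number, and points of cells with both or neither coreceptor are shifted slightly to show overlaps. Cells lie along one axis or the other, and 2 EYFP negative cells lie off both.

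Within Cd8 T-like cells Ly6c2 accompanied genes of memory and effector cells. In the EYFP negative library Ly6c2 stood at 1365 CPM in the 25 cells with Cxcr3, a chemokine receptor, and at 159 CPM in the 120 cells without (8.58-fold, 7.21 to 10.3). With Tbx21, the transcription factor T-bet, the Ly6c2 levels were 1632 CPM with and 273 CPM without (5.98-fold), and with the chemokine Ccl5 1086 CPM with and 201 CPM without (5.41-fold). The cells with Ccl5 in the EYFP positive library had 1135 CPM of Ly6c2 (63 UMIs in 6 cells), against 34.3 CPM (8 UMIs in 55 cells) in those without. Of the memory genes with enough UMIs, 7 of 9 among EYFP positive cells and 9 of 10 among EYFP negative cells went with a higher Ly6c2 level, and Id2 was an exception in both, with folds of 0.180 and 0.831. Naive genes did not split the cells in the opposite way: Ly6c2 was higher with 5 of 8 in the EYFP positive and 7 of 8 in the EYFP negative library, and in the EYFP negative library it was lower in cells with Igfbp4 (0.419-fold). Depth moved with these splits, since EYFP positive Cd8 cells with Ccl5 had a median of 9459.5 UMIs against 1849 in those without, while in the EYFP negative library the medians were 12919 and 9787.

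Among Cd4 cells of the EYFP negative library Ly6c1 and Ly6a went apart. Ly6c1 was lower in cells with a UMI of 8 of 9 memory genes and higher in cells with 7 of 8 naive genes. It stood at 7.53 CPM in cells with Il2rb, a chain of the receptors for interleukins 2 and 15, and at 94.7 CPM in cells without. In cells with Satb1, a chromatin organiser of resting T cells, it stood at 87.3 CPM, against 10.2 CPM in cells without. The exception among the naive genes was Tcf7 (0.495-fold). Ly6a did the reverse, higher in cells with 8 of 9 memory genes and lower in cells with 8 of 8 naive genes. It stood at 376 CPM with Il2rb and 176 CPM without, at 632 CPM with Tbx21 and 201 CPM without, and at 167 CPM with Satb1 and 491 CPM without. In these EYFP negative Cd4 cells the interval lay wholly above 1 for 6 of the 9 memory genes and wholly below 1 for 5 of the 8 naive genes in the case of Ly6a. For Ly6c1 it lay wholly below 1 for 6 memory genes and wholly above 1 for 4 naive genes. In the 31 EYFP positive Cd4 cells, with 16 UMIs of Ly6a, the pattern was not seen: Ly6a was higher with 3 and lower with 4 of 7 memory genes, and higher with 3 and lower with 3 of 6 naive genes. Nor was it seen in EYFP negative Cd8 cells, where Ly6a was higher with 2 and lower with 8 of 10 memory genes. Ly6c1 in EYFP positive Cd4 cells was higher with 1 and lower with 2 of 3 memory genes, and higher with 5 and lower with 2 of 7 naive genes. In EYFP negative Cd4 cells Ly6e leaned the way of Ly6a, higher with 9 of 9 memory genes and lower with 8 of 8 naive genes, but past 2-fold with none of them. Median depth differed little in the Il2rb split, with 8077 UMIs in cells with Il2rb and 8158.5 in cells without.

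**Figure D5:**
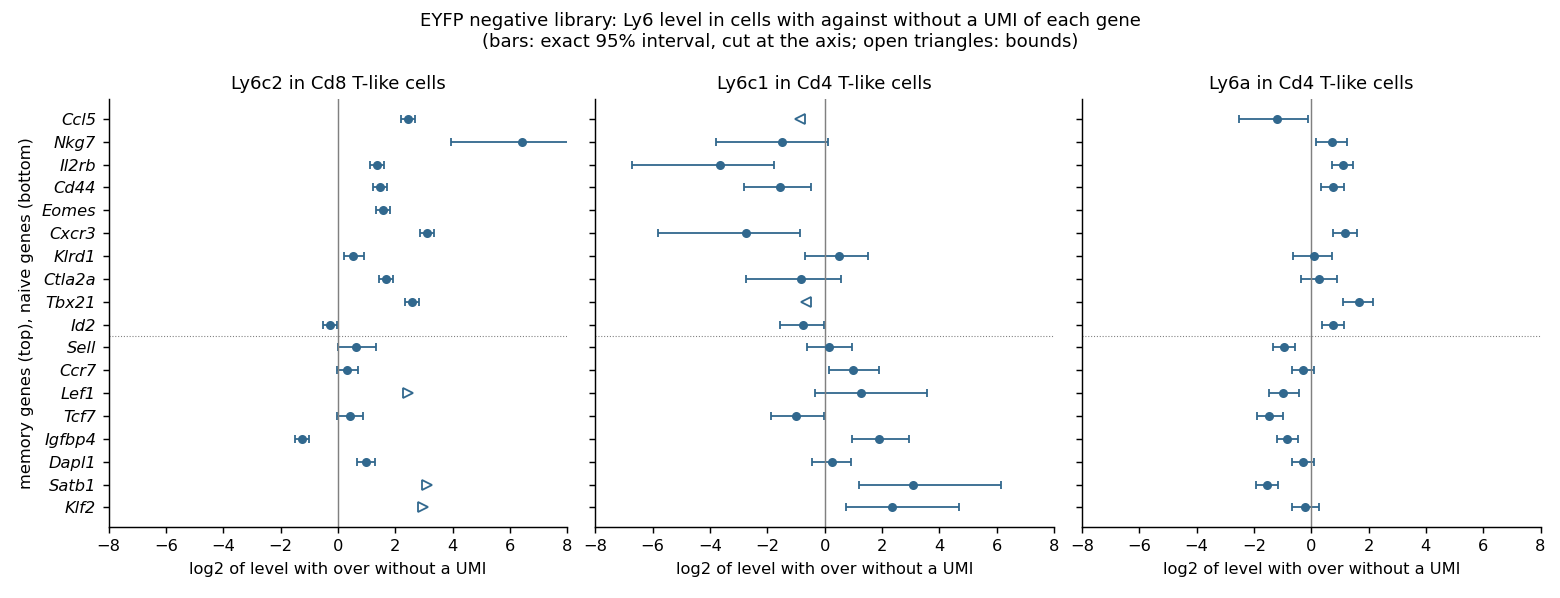
Fold of the Ly6 level in EYFP negative T-like cells with over those without a UMI of each memory or naive gene, on a log2 axis. The panels give Ly6c2 in Cd8 cells and Ly6c1 and Ly6a in Cd4 cells, bars are exact 95% intervals and triangles are bounds against the floor of 3 UMIs. The fold of Ly6c2 lay above 1 with 9 of 10 memory genes, that of Ly6c1 below 1 with 8 of 9, and that of Ly6a above 1 with 8 of 9.

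Ly6d was a B cell gene in both libraries. It stood at 1221 CPM (1103 to 1349; 390 UMIs in 78 of 108 cells) in EYFP positive and 1537 CPM (1447 to 1630; 1103 UMIs in 102 of 106 cells) in EYFP negative B-like cells, a fold of 0.795 (0.706 to 0.893). Among cells of at least 500 genes with mitochondrial UMIs at 10% or less the direction turned, with a fold of 1.09. B-like cells held 93.1% of all Ly6d UMIs in the EYFP positive and 96.9% in the EYFP negative library, and their level was 102-fold (70.0 to 155) and 182-fold (130 to 262) above that of the other cells. These 2 folds rest on the few UMIs elsewhere, 29 and 35, and under other settings lay between 25.0 and 412 in the EYFP positive and between 143 and 494 in the EYFP negative library. Of the 35 in the EYFP negative library, 23 were in 3 of 13 erythroid-like cells (75.3 CPM), 12 of them in 1 cell. The leading genes of that cluster were cell cycle genes such as Top2a and Mki67 as well as haemoglobin genes. B markers were not counted in its cells, so whether erythroid cells held these UMIs was not tested. Of the 5 members, 1 in the EYFP positive and 3 in the EYFP negative library were past 2-fold higher in B-like cells, where 7.72% and 7.65% of all genes were.

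By cluster, EYFP positive B-like cells of cluster 3 had 1268 CPM of Ly6d (46 of 49 cells) and those of the shallow cluster 5 had 1006 CPM (32 of 59 cells). With all cells thinned to 500 UMIs, 41.7% of EYFP positive and 51.9% of EYFP negative B-like cells held Ly6d. T-like cells, with medians of 1007.5 and 8556.5 UMIs against 1520 and 5602.5 in the B-like cells, held it in 4 of 210 EYFP positive and 5 of 388 EYFP negative cells. Those T-like cells with Ly6d had B markers at 327 CPM in the EYFP positive and 844 CPM in the EYFP negative library, against 29.4 and 19.8 CPM in T-like cells without it. In EYFP positive ductal or metaplastic epithelial-like cells 19 Ly6d UMIs were spread over 18 of 224 cells.

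Ly6d went with the surface of resting mature B cells. It stood at 1377 CPM in EYFP positive B-like cells with Ighd, the IgD heavy chain, and at 606 CPM in those without (2.27-fold, 1.63 to 3.25). In EYFP negative cells it stood at 1729 CPM with Ighd (101 cells) and 425 CPM without (4.07-fold), and that value without rests on 5 cells. The median depths were 4321 UMIs with and 657 UMIs without Ighd in EYFP positive cells, and 5557 UMIs with and 13847 UMIs without in EYFP negative cells. All 5 mature B genes among EYFP positive cells and all 4 with enough UMIs among EYFP negative cells went with higher Ly6d. With genes of antibody-secreting cells it differed: in EYFP negative B-like cells Ly6d stood at 519 CPM with the joining chain Jchain and 1724 CPM without. It was lower with 4 of 5 genes of the plasma cell list there. In EYFP positive cells the 2 genes that could be compared gave 0.942 for Mzb1 (0.768 to 1.15) and 0.916 for Xbp1 (0.731 to 1.14), and both intervals spanned 1. Ly6a was the other member of note in B cells, at 326 CPM (104 UMIs) in EYFP positive and 375 CPM (269 UMIs) in EYFP negative cells, with a fold of 0.869 (0.686 to 1.09) that spanned 1 and was 0.517 when cells were thinned to 500 UMIs. Among the 4 members with at least 10 UMIs in B-like cells, 1 was past 2-fold between the libraries, Ly6c2 with 12 UMIs in 1 EYFP positive cell and 11 UMIs in 4 EYFP negative cells, where 14.7% of all genes were.

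Ly6e was found in every class. In all kept cells it stood at 852 CPM in the EYFP positive and 818 CPM in the EYFP negative library, a fold of 1.04 (0.990 to 1.1). Within each of the 5 classes, however, the EYFP positive level was the lower one. In blood endothelial-like cells it was 1712 CPM in EYFP positive and 2380 CPM in EYFP negative cells (0.719-fold, 0.576 to 0.905). In B-like cells it was 1346 CPM in EYFP positive and 1567 CPM in EYFP negative cells (0.859-fold, 0.767 to 0.961), a direction that turned to 1.07 among cells of at least 500 genes with mitochondrial UMIs at 10% or less. In T-like cells it was 518 CPM in EYFP positive and 645 CPM in EYFP negative cells (0.802-fold, 0.715 to 0.898). Within some clusters the gap was smaller and the intervals of the libraries overlapped. T-like cluster 4 had 489 CPM in EYFP positive and 562 CPM in EYFP negative cells, and T-like cluster 10 had 900 and 950 CPM. B-like cluster 3 had 1389 and 1567 CPM, and the deeper endothelial-like cluster had 2069 and 2489 CPM.

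The same direction held for Ly6e in the smaller classes. Fibroblast-like cells had 585 CPM in the EYFP positive and 1013 CPM in the EYFP negative library (0.577-fold, 0.404 to 0.833), and 0.234-fold when thinned to 500 UMIs. Macrophage or monocyte-like cells had 591 CPM in the EYFP positive and 784 CPM in the EYFP negative library (0.753-fold, 0.578 to 0.984), and 0.298-fold as a mean over cells. Of the 53 EYFP positive cells, 26 were in a shallow cluster with 1 Ly6e UMI and no EYFP negative cell. The cluster shared by the libraries had 681 CPM (569 to 809) in EYFP positive and 784 CPM (641 to 950) in EYFP negative cells. These intervals overlapped. The median fold over all genes was also below 1, from 0.923 in T-like to 0.972 in B-like cells. Over the members with at least 10 UMIs the median log2 fold was -0.32 in T-like, -0.21 in B-like and -0.58 in endothelial-like cells, beside -0.12, -0.04 and -0.09 over all genes. In fibroblast-like cells the member median was above 0, at 2.00 over 3 members, beside -0.07 over all genes. In macrophage or monocyte-like cells it was -1.63 over 2 members, beside -0.06 over all genes. Ductal or metaplastic epithelial-like cells, nearly all of them EYFP positive, had 1111 CPM (929 UMIs in 109 of 224 cells), of which 1 cell held 176 UMIs. Acinar-like cells of that library had 230 CPM (69 UMIs in 111 cells). Shares of T-like cells with Ly6e were 100 of 210 in the EYFP positive and 355 of 388 in the EYFP negative library, or 19.0% and 25.3% after thinning to 500 UMIs.

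Myeloid cells held Ly6e and almost none of the other members. Ly6c2, whose protein marks inflammatory monocytes, had no UMI in 53 EYFP positive macrophage or monocyte-like cells and 13 UMIs in 2 of 11 EYFP negative ones, 11 of them in 1 cell. The EYFP negative level was 98.1 CPM (52.2 to 168). Against a floor of 3 UMIs the EYFP positive level was at least 7.24-fold lower, and the limit of the counting interval was 5.10-fold. The 0 of 53 allows a share of cells with a UMI of up to 5.66%, at a median of 971 UMIs. Ly6a, with 1 and 3 UMIs, and Ly6c1, with 0 and 1 UMI, were at or under the floor in both libraries, and Ly6d had none. Of the 2 members with at least 10 UMIs, 1 was past 2-fold, Ly6c2 as the lower one in EYFP positive cells, where 28.3% of all genes were past 2-fold either way.

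By summed UMIs a macrophage gene led the listed myeloid genes in both libraries, Apoe with 2344 UMIs in EYFP positive and 705 UMIs in EYFP negative cells. C1qa, a complement subunit made by resident macrophages, had 635 UMIs in the EYFP positive and 199 UMIs in the EYFP negative class. Of the monocyte genes, Ccr2, the receptor that draws monocytes out of the marrow, had 140 UMIs in EYFP positive and 56 UMIs in EYFP negative cells, while Plac8 had 19 and 119 UMIs. By cells the EYFP negative class was mixed. C1qa, Plac8 and the dendritic cell gene Itgax were each in 5 of its 11 cells, and Ccr2 and the dendritic cell gene Flt3 each in 4. In the EYFP positive class 26 of 53 cells were in a shallow cluster that also had haemoglobin genes among its leading genes. NK or innate lymphoid-like cells, which fell in different clusters in the 2 libraries, had no Ly6c2 UMI in 31 EYFP positive cells and 36 UMIs (287 CPM) in 3 of 14 EYFP negative cells, 26 of them in 1 cell. Of the members with at least 10 UMIs there, 2 of 2, Ly6c2 and Ly6e, were past 2-fold lower in EYFP positive cells, where 36.5% of all genes were past 2-fold either way.

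Outside the classes that carry them, Ly6a and Ly6c1 were found at low levels in the epithelium of the EYFP positive library. Acinar-like cells had 33.4 CPM of Ly6a (10 UMIs) and 30.1 CPM of Ly6c1 (9 UMIs), and ductal or metaplastic epithelial-like cells had 21.5 CPM of Ly6a (18 UMIs) and 15.5 CPM of Ly6c1 (13 UMIs). Ly6c2 had 17 UMIs in 10 of 111 acinar-like cells and none in 224 ductal or metaplastic epithelial-like cells. In the EYFP negative library each of these classes held 2 cells. Erythroid-like cells of that library had 81.85 CPM of Ly6a (25 UMIs in 4 of 13 cells) and no UMI of Ly6c1. The libraries held the cell types in other proportions, and the level over all kept cells differed from that within classes: Ly6a stood at 309 CPM over all EYFP positive and 199 CPM over all EYFP negative cells (1.55-fold), and Ly6c1 at 211 CPM and 72.1 CPM (2.93-fold).

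The rest of the family was sparse. Of 38 other Ly6 and uPAR family genes listed, 33 were in the feature table, 14 had any UMI and 9 had at least 10 UMIs over all kept cells. Beside Gpihbp1 with 271 UMIs these were Bambi (86), a decoy receptor of TGF-beta signalling, Plaur (83), the urokinase receptor, Cd59a (52) and Cd59b (12), which block the complement pore, Lynx1 (52), a modulator of acetylcholine receptors, Ly6k (38), Lypd6b (35) and Ly6g6d (16). Ly6g, the antigen used to sort neutrophils, had no UMI, and genes of the neutrophil list had 7 UMIs in EYFP positive and 3 UMIs in EYFP negative macrophage or monocyte-like cells. In EYFP positive ductal or metaplastic epithelial-like cells Bambi had 58 and Cd59a 35 UMIs. Ly6k had 7 UMIs in EYFP positive and 23 UMIs in EYFP negative T-like cells.

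Genes that act with the members in the cell were compared as lists. Of 28 genes that make and attach the GPI anchor, 26 had at least 10 UMIs in T-like cells, with 0 past 2-fold higher and 2 past 2-fold lower in EYFP positive cells, at a median log2 fold of -0.27, where 12.2% of all genes were past 2-fold and their median was -0.12. Dpm3, a subunit of the mannose donor enzyme, stood at 107 CPM in EYFP positive and 118 CPM in EYFP negative T-like cells. In B-like cells 0 of 17 were higher and 1 lower, in endothelial-like cells 0 of 6 and in fibroblast-like cells 0 of 5 were past 2-fold either way, and in macrophage or monocyte-like cells 0 of 7 were higher and 1 lower. The shares of all genes past 2-fold in these 4 classes were 14.7%, 27.6%, 33% and 28.3%.

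Interferon-induced genes, a list of 30, were read against the same shares. In T-like cells 1 of 26 was past 2-fold higher and 0 lower, where 12.2% of all genes were past 2-fold, at a median log2 fold of 0.00, and Psmb8, an immunoproteasome subunit, stood at 461 CPM in EYFP positive and 470 CPM in EYFP negative cells. In B-like cells 1 of 20 was higher and 2 lower, at a median of -0.35, which as a share is near the 14.7% of all genes. In endothelial-like cells 4 of 24 were higher and 1 lower, against 27.6% of all genes, at a median of 0.03, and Ifitm3, which blocks virus entry, stood at 1641 CPM in EYFP positive and 1661 CPM in EYFP negative cells. In fibroblast-like cells 2 of 10 were higher and 1 lower, against 33% of all genes. In macrophage or monocyte-like cells 1 of 19 was higher and 9 were lower, against 28.3% of all genes, at a median of -0.78 beside -0.06 over all genes. Of the 8 interferon receptors and factors, 0 of 8 were past 2-fold in T-like, B-like or macrophage or monocyte-like cells, 1 of 7 was higher and 1 lower in endothelial-like cells, and 0 of 5 were higher and 2 lower in fibroblast-like cells.

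Over the 10 sums of a library and class with at least 20 cells, each member had its own set of genes with a like pattern among 10475 genes, given as Pearson's r of log2(CPM + 10). Ly6d was closest to B cell genes, with r = 0.993 for Vpreb3, 0.992 for Iglc3, 0.991 for Pax5, 0.990 for Fcmr and 0.989 for Cd79a. Ly6c1 was closest to Lrrc32 (0.968), Ppic (0.956), Lysmd2 (0.952), Prrg1 (0.95) and Ifit2 (0.943). Ly6a was closest to Id3 (0.933), Rnf144a (0.905), Mast4 (0.871), Tubd1 (0.870) and Pear1 (0.854). Ly6c2 was closest to Fam78a (0.988), Cacna2d4 (0.963), Xlr4b (0.957), AC147041.1 (0.954) and Rrp12 (0.940), and Ly6e to Pnrc2 (0.954), Inpp5f (0.923), Tor4a (0.896), Myo1c (0.890) and Dhx58 (0.889). Among the members the highest r was 0.695, between Ly6a and Ly6c1, and that between the near copies Ly6c1 and Ly6c2 was -0.09. The sums share 2 libraries and their depth, so these values describe the data and carry no test.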

How the data were processed

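The authors deposited tables of raw UMI counts, with genes as rows and barcodes as columns, for 2 libraries, 1 EYFP positive and 1 EYFP negative. Per the submitters' processing notes the tool was Cell Ranger 2.1.0 and the build GRCh38. The version in the file headers is 3.1.0 and the genes carry mouse Ensembl identifiers. Since these differ, the build used for mapping is unknown here. Per the labels' protocols a Chromium 5′ kit was used, and the end of the transcript that was read was not checked here. Coordinates were taken from GENCODE M21 by gene identifier, and coding sequences come from 1 transcript a gene, the first with the most common coding length.

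Barcodes were kept if they had 200 genes or more and a mitochondrial share of UMIs of 20% or less. Scanpy 1.11.5 (Python 3.11.15) clustered both libraries as one, without the Ly6 and uPAR family genes, from genes in at least 3 cells, scaled to 10000 per cell, with 2000 variable genes, 30 principal components, 15 neighbours and Leiden resolution 1.0. No batch term was used, since library and group are the same. A cluster took the name of the type with at least 3 markers at 2-fold or more and 5 UMIs or more against the median cluster, and a class is X-like since it rests on markers alone. Scrublet marked 2 cells in each library, and doublets were kept.

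UMIs were summed per library and class. Levels carry exact Poisson, shares above 0 exact Clopper-Pearson and ratios exact conditional binomial 95% intervals (scipy 1.17.1), which cover counting error only. With 1 library per group no test was made and no p-value is given. Genes count as past the fold at 2-fold with at least 10 UMIs in the 2 sums together. Sums with a count of 0 were set to a floor of 3 UMIs for a bound, and no fold is given where both sums held at most 3. Likeness used genes with at least 30 UMIs. The script for folds and intervals was tested on simulated data.

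The members, the lists, the markers, the naming rule and the alternatives were chosen with earlier results of these data known. Of the other family every gene with at least 10 UMIs is named, of the other lists up to 4 with the most UMIs, and of like genes the 5 with the highest r, leaving out mitochondrial, ribosomal, predicted and variable-region genes.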

Additional observations from a re-analysis of the deposited data

Results flagged for a closer look

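Between classes, Ly6a took opposite directions in the comparison of the EYFP positive with the EYFP negative library. The ratio was 4.0 in fibroblast-like cells, 0.51 in T-like cells and 0.67 in blood endothelial-like cells, and the intervals of these ratios lay on opposite sides of 1. Ly6c1 did the same, with a ratio of at least 9.9 in fibroblast-like cells and 0.619 in blood endothelial-like cells. With 1 library per group these differences between classes were not tested, and the EYFP negative fibroblast-like class holds 6 cells.

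Members were also counted in barcodes that the cell filters left out. The 857 such barcodes of the EYFP positive library held 1261465 UMIs, among them 173 of Ly6e, 23 of Ly6a, 17 of Ly6c1, 13 of Ly6d and 1 of Ly6c2. The 192 left-out barcodes of the EYFP negative library held 438606 UMIs, with 20 of Ly6e, 3 of Ly6d, 2 of Ly6a, 1 of Ly6c1 and 0 of Ly6c2. Of the Ly6e UMIs in the EYFP positive library, 122 were in the 99 barcodes over the mitochondrial limit.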

How the results depend on the processing

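Of 260 values recomputed for the comparisons of the members and the counts of genes past 2-fold, 211 counted as unchanged, 48 moved and 1 turned its direction. A ratio counted as unchanged when it stayed within the counting interval of the value given. Bounds and counts of genes were judged by a fixed factor or by the side of 1 on which they lay. A turn was counted only where the interval of the value given did not span 1. Of 261 values for other single genes and classes and for the sets of most like genes, 215 stayed, 45 moved and 1 turned. The sets were judged by the number of genes shared. The values that turned were Ly6d (1.09) and Ly6e (1.07) between the libraries in B-like cells, both among cells of at least 500 genes with mitochondrial UMIs at 10% or less. Under that filter the class against the rest gave 14.9 for Ly6a and 43.0 for Ly6c1 in EYFP positive endothelial-like cells, and 412 in EYFP positive and 367 in EYFP negative B-like cells for Ly6d. With cells of at least 1000 UMIs Ly6d gave 246 in EYFP positive B-like cells. With classes set per cell, Ly6c2 in T-like cells gave 0.923 between the libraries and 1.19 against the rest in EYFP negative cells, and Ly6d 494. With clusters of at least 5 cells in both libraries, a setting chosen after seeing the data, the folds against the rest were 8.23 for Ly6a and 21.5 for Ly6c1 (EYFP positive endothelial-like), 7.58 for Ly6c2 (EYFP negative T-like), and 341 and 463 for Ly6d in EYFP positive and EYFP negative B-like cells.

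As a mean over cells, Ly6d gave 0.680 between the libraries, and the folds against the rest were 9.52 and 15.5 for Ly6a, 16.2 and 67.5 for Ly6c1 and 25.0 and 368 for Ly6d in EYFP positive and EYFP negative cells, and 5.42 for Ly6c2 in EYFP positive cells. Thinned to 1000 UMIs, the ratio between the libraries was 0.531 for Ly6c2 in T-like and 1.26 for Ly6a in fibroblast-like cells. The folds against the rest were then 16.0 for Ly6a (EYFP negative), 20.4 for Ly6c1 (EYFP positive), and 4.11 and 5.72 for Ly6c2 in EYFP positive and EYFP negative cells, and the Cd8 over Cd4 bound of Ly6c1 was 0.362 in EYFP positive cells. Thinned to 500 UMIs, the ratios between the libraries were 0.568 for Ly6c2 in T-like, 0.597 for Ly6d in B-like and 0.405 for Ly6c1 in endothelial-like cells. The folds against the rest were 9.42 and 11.9 for Ly6a and 31.6 and 409 for Ly6d in EYFP positive and EYFP negative cells, and 16.7 for Ly6c1 and 4.95 for Ly6c2 in EYFP positive cells. Without acinar secretory, mitochondrial and ribosomal genes in the totals, the endothelial-like folds were 10.7 and 13.7 for Ly6a and 26.5 and 62.5 for Ly6c1. Without the cell richest in the member in each class, they were 15.4 for Ly6a (EYFP positive), 16.2 and 13.6 for Ly6c2 in EYFP positive and EYFP negative T-like cells and 405 for Ly6d (EYFP negative), and the Cd8 over Cd4 bound of Ly6c1 was 0.169 (EYFP positive). With no filter beyond the floor, 2268 and not 1322 genes were past 2-fold in macrophage or monocyte-like cells, and 1772 and not 982 in EYFP positive Cd8 over Cd4 cells. The causes were not tested. No cluster was shallow enough against its library to be left out for its depth, so that setting changed nothing. Some results had no value when thinned or averaged over cells, since too few UMIs were left, such as Ly6c1 in fibroblast-like cells at 500 UMIs. Of the 5 genes most like each member, between 0 and 3 were shared when ranked by Spearman's rho.

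No paired analysis was possible because each group is 1 library. There was no replicate to leave out either. Depth limits the EYFP positive classes, and cell number the EYFP negative endothelial-like, fibroblast-like and myeloid classes.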
